A study of Mus musculus with 8 samples.

Results

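The miRNAs described here are the vascular miR-126 with its 2 arms and the pair of miR-221 and miR-222, taken by name from the array: mmu-miR-126-3p, mmu-miR-126-5p, mmu-miR-221 and mmu-miR-222, 4 of the 567 mouse miRNAs it measured. Liver RNA of male C57BL/6J mice, 8 weeks old at the start, was hybridised to 8 single-colour arrays. In the CCL4 groups the hepatotoxin carbon tetrachloride, dissolved in olive oil, was injected into the peritoneum 2 times a week for 4 weeks and once a week after that, and the control groups were given olive oil in the same way. Of the arrays, 5 were of CCL4 mice, killed after 4 weeks (1 array), 6 weeks (2 arrays) or 8 weeks (2 arrays), and 3 were olive oil controls, 1 for each time. The olive oil is thus shared by every group, and no array came from an uninjected mouse. Whether an array held RNA of 1 mouse or of a pool is not given in the sources used here, so the p-values measure the spread between these samples, which may be technical. The liver miRNA mmu-miR-122 had the highest signal of all on each of the 8 arrays.

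A miRNA is cut from a hairpin transcript, and either arm of the hairpin can give a mature strand. The strand guides a silencing complex to messenger RNAs, mainly by pairing through its seed, the bases 2 to 8 from the 5′ end. miR-126 is the best known miRNA of endothelial cells. It lies in an intron of Egfl7, which encodes a protein secreted by endothelium, and it is known to sustain VEGF signalling in vessels. miR-221 and miR-222 come from 1 cluster on the X chromosome. They are known to restrain KIT and the cell cycle inhibitor p27, act in endothelial and smooth muscle cells, and are often raised in proliferating liver cells and in activated stellate cells, the main matrix-producing cells of the fibrotic liver.

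The mature sequences are shown because they set which of these miRNAs could act on the same targets. RefSeq (GRCm38.p6) held 3 of the 4 members, and the entry mmu-miR-126a-5p was not matched. Capitals mark the seed.
mmu-miR-126a-3p, chr2:26591402-26591423, plus strand: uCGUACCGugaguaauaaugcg
mmu-miR-221-3p, chrX:19146307-19146329, minus strand: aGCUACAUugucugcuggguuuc
mmu-miR-222-3p, chrX:19146901-19146923, minus strand: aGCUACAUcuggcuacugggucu

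miR-221-3p and miR-222-3p carried the same seed and were identical over their first 8 bases, while 12 of their 23 positions differed when they were aligned from the 5′ end without gaps. Of the 1738 mature mouse miRNAs in the RefSeq table, mmu-miR-1928 was the only other one with this seed, and it was not among the array's names. The seed of miR-126-3p was shared with 0 others. The Mir221 and Mir222 hairpins lay 504 bases apart on the minus strand, and no annotated gene overlapped them. The Mir126a hairpin, chr2:26591357-26591429 on the plus strand, lay within the bounds of Egfl7 (chr2:26581083-26592682), and the Mir126b hairpin of 58 bases lay inside it on the opposite strand. The hairpin, the precursor of miR-126-3p, is printed with the 3p arm in capitals.
Mir126a: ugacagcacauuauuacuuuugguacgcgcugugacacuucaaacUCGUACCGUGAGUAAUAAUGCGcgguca

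Each member was read by 2 probes with 10 spots each. By the array design (mm9), the probes of miR-126-3p matched chr2:26446926-26446943 and chr2:26446925-26446943, those of miR-126-5p chr2:26446885-26446905 and chr2:26446886-26446905, and those of miR-221 chrX:18723433-18723451 and chrX:18723433-18723452. These matches were 18 to 21 bases long. The probes of miR-222 matched chrX:18724029-18724041 and chrX:18724029-18724042, which is 13 and 14 bases.

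The unscaled signal is the background-subtracted intensity summed over a miRNA's probes. It includes the brightness of the array, and each CCL4 array was brighter as a whole than its week's control, as described below. For miR-126-3p, the strand usually taken as the main one in endothelium, it was 1312 after 4 weeks of CCL4, 868 and 1413 after 6 weeks, and 1981 and 1742 after 8 weeks. In the olive oil arrays it was 1064, 1037 and 1390 at 4, 6 and 8 weeks. On 4 of the 5 CCL4 arrays the signal was thus above that of the week's control, the exception being the first array of 6 weeks, and the groups overlapped. It ranked between 10 and 13 by signal among all mouse miRNAs of an array, with an error given by the scanner software of 7.23% to 7.26%.

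miR-126-5p, the other arm, gave signals of 35.6 after 4 weeks of CCL4, 19.9 and 30.9 after 6 weeks, and 52.5 and 41.7 after 8 weeks. The olive oil arrays gave 24.0, 22.9 and 32.3. The same CCL4 array of 6 weeks was lowest, and the groups overlapped here too. Its error was 11.0% to 17.2%, so that this arm was measured less precisely than the 3p arm.

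For miR-221 the signals were 61.3 after 4 weeks of CCL4, 36.1 and 45.9 after 6 weeks, and 61.1 and 55.9 after 8 weeks, against 25.3, 28.2 and 37.8 in olive oil. All 5 CCL4 arrays were above the control of their week, but each of them was also brighter as a whole than that control. The groups as a whole overlapped by 1 array, since the first CCL4 array of 6 weeks was below the olive oil array of 8 weeks. The error was 8.71% to 15.7%.

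miR-222 was called detected on 0 of the 8 arrays. Its signals were 2.73 after 4 weeks of CCL4, 0.461 and -0.263 after 6 weeks, 3.62 and 1.04 after 8 weeks, and -1.77, -0.544 and 1.09 in olive oil. Its signal exceeded the error given by the scanner software on 2 arrays, with 2.73 against an error of 2.65 at 4 weeks and 3.62 against 3.29 on the first array of 8 weeks of CCL4, whereas the other 3 members were at least 5.82 times their error on every array. The partner of miR-221 in the cluster was therefore not well above background in either group, and no fold change or test is given for it. Whether the shorter match of its probes has a part in this was not tested.

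**Figure D1:**
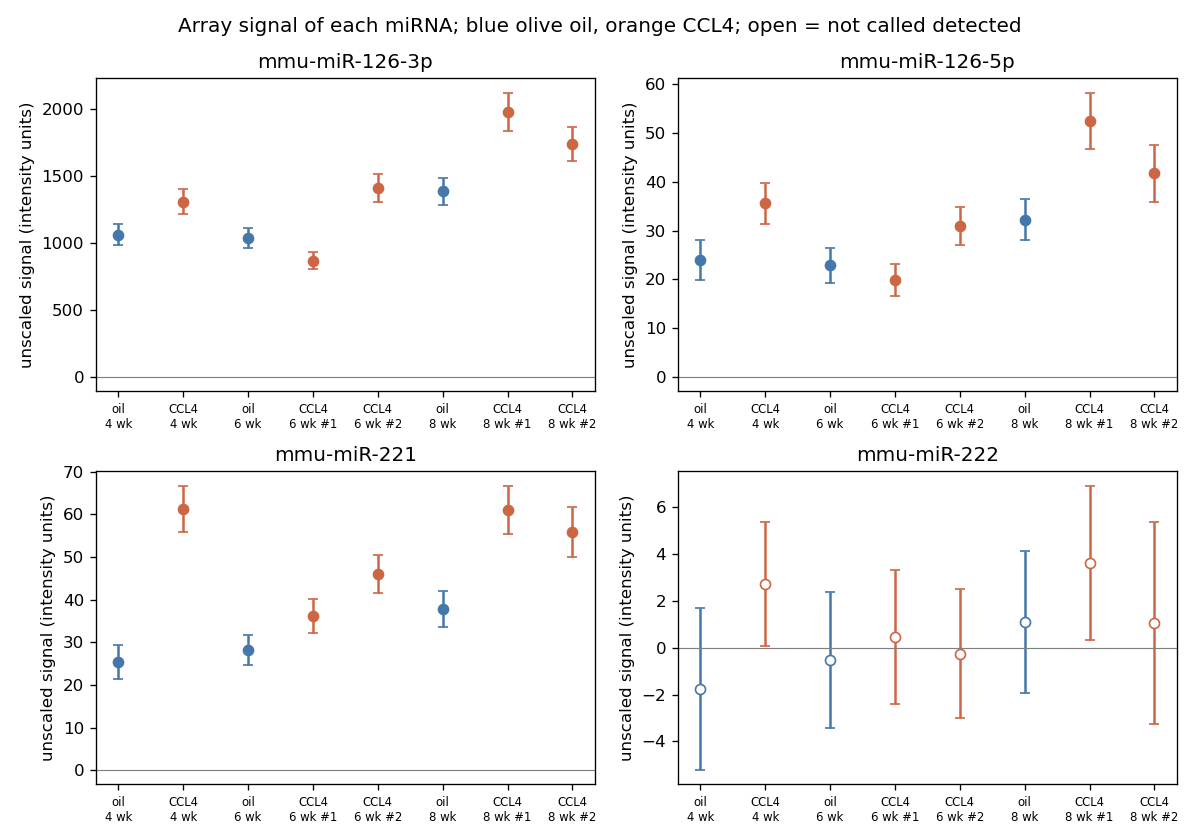
Unscaled signal in intensity units on each of the 8 arrays, in 1 panel per miRNA with its own axis; bars are the error given by the scanner software, blue is olive oil, orange is CCL4 and open points were not called detected. miR-221 was higher on each CCL4 array than on its week's control, the 2 miR-126 arms followed each other, and miR-222 lay within about 1 error of 0.

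The CCL4 arrays were brighter as a whole: the median signal of the 113 miRNAs detected on all arrays was 80.7 to 162 with CCL4 and 65.9 to 90.4 with olive oil. The signals were therefore divided by the 75th percentile of all mouse miRNAs on the array (6.53 to 11.0 for CCL4 and 4.71 to 6.48 for olive oil), and the scaled level is log2 of that ratio. On the olive oil arrays the divisor lay below the lowest signal called detected, which was 7.12, 6.26 and 7.80 at 4, 6 and 8 weeks. On each CCL4 array it lay above the lowest such signal. What part this has in the scaled differences was not tested. This scaling moved the median log2 difference of the same 113 miRNAs by 0.67, from 0.31 without it to -0.36 with it. The direction of each member is therefore given against that median as well as against 0. Between 117 and 158 miRNAs were detected per array. In bulk liver RNA, fewer cells of a type and less of a miRNA per cell cannot be told apart.

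On the scaled log2 level, miR-126-3p was at 7.11 after 4 weeks of CCL4, 7.06 and 7.55 after 6 weeks, 7.49 and 7.65 after 8 weeks, and at 7.70, 7.78 and 7.74 in olive oil. All 5 CCL4 arrays lay below all 3 olive oil arrays. The mean was 7.37 ± 0.27 (SD, n = 5) against 7.74 ± 0.04 (SD, n = 3), and the spread among CCL4 arrays was much the wider. In an exact two-sided permutation test over 56 splits the difference of -0.37 had p = 0.0357, the smallest value this design allows. Groups that did not overlap were common on this scale, at 52.6% of the 133 miRNAs tested (70 of them). Without scaling the difference was 0.29 with an exact permutation p = 0.321, the groups overlapped, and 14.3% of the tested miRNAs had groups that did not overlap.

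The scaled log2 level of miR-126-5p was 1.91 after 4 weeks of CCL4, 1.61 and 2.03 after 6 weeks, 2.25 and 2.26 after 8 weeks, and 2.23, 2.28 and 2.31 in olive oil. The CCL4 arrays of 4 and 6 weeks were below all olive oil arrays, and those of 8 weeks lay among them. The mean was 2.01 ± 0.27 (SD, n = 5) against 2.28 ± 0.04 (SD, n = 3). The difference of -0.26 was not past the threshold (exact permutation test, two-sided, p = 0.143), and without scaling it was 0.40 (exact p = 0.321).

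miR-221 had scaled log2 levels of 2.69 after 4 weeks of CCL4, 2.47 and 2.61 after 6 weeks, and 2.47 and 2.69 after 8 weeks, against 2.31, 2.58 and 2.54 in olive oil. The groups overlapped throughout, with the olive oil array of 4 weeks the lowest of all. The mean was 2.58 ± 0.11 (SD, n = 5) against 2.48 ± 0.15 (SD, n = 3), a difference of 0.11 (exact permutation test, two-sided, p = 0.286). Without scaling the difference was 0.77 (exact p = 0.0714).

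**Figure D2:**
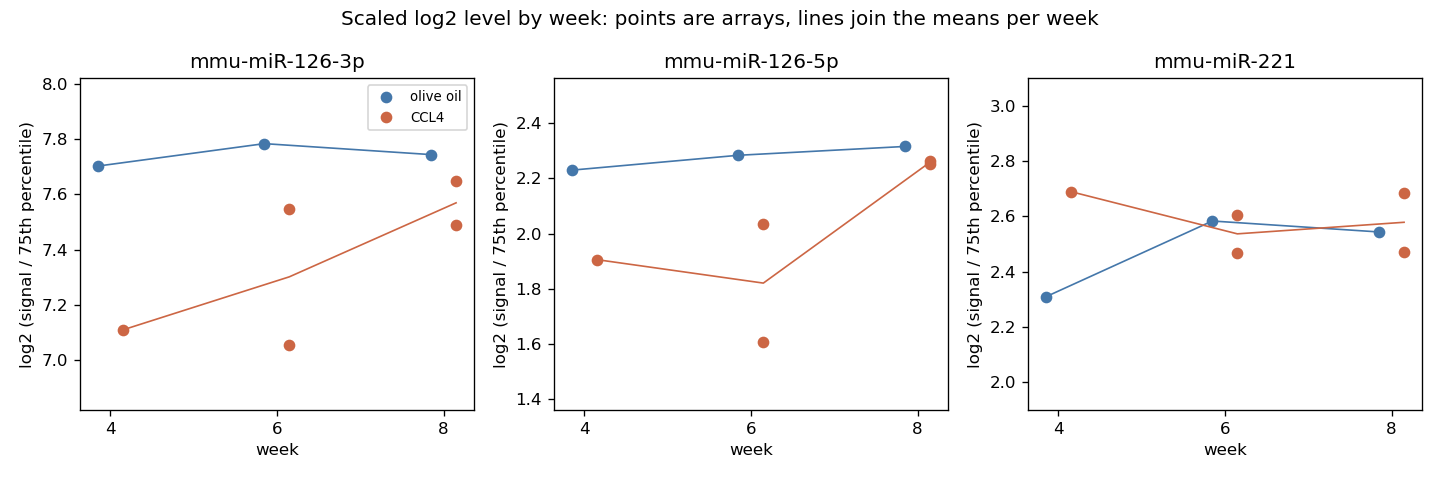
Scaled log2 level (signal over the array's 75th percentile) by week for the 3 detected members; points are arrays, lines join the mean of each week, and each panel spans the same height. miR-126-3p was lower on all CCL4 arrays, with 7.57 at 8 weeks nearest to the olive oil level of 7.74, whereas the miR-221 levels of the treatments crossed. On this scale 52.6% of the tested miRNAs had groups that did not overlap.

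In the limma fit over all weeks, with week as a factor, 0 of the 3 tested members passed an adjusted p of 0.05, while 48.9% of the 133 tested miRNAs did (13.5% higher and 35.3% lower in CCL4). miR-126-3p differed by -0.40 on the log2 scale (SE 0.168, 95% interval -0.77 to -0.03), with a raw p of 0.0373 and an adjusted p of 0.0671. Each of the 5 CCL4 arrays was below its week's control. miR-126-5p differed by -0.28 (SE 0.162, interval -0.63 to 0.08, adjusted p = 0.158), also with all 5 below. Having all 5 below was shared with many of the tested miRNAs, whose median difference was -0.32, and is not particular to the arms. For miR-221 the difference was 0.10 (SE 0.152, interval -0.24 to 0.44, adjusted p = 0.596), with 3 of 5 arrays above their control. The unadjusted test passed 19 miRNAs higher and 59 lower, miR-126-3p among the latter.

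Against the 113 miRNAs detected on all arrays, whose median difference was -0.36, miR-126-3p lay 0.04 below the median (-0.04), miR-126-5p 0.08 above and miR-221 0.46 above. Counted from the largest rise they stood at places 63, 46 and 23. Dividing an array by 1 number moves all miRNAs alike, so these distances are by construction the same without scaling, where the fitted log2 differences were 0.27 for miR-126-3p, 0.39 for miR-126-5p and 0.77 for miR-221. The miR-126 arms thus lay near the middle of the detected miRNAs, and miR-221 lay above it. Without scaling miR-221 passed the threshold (limma, adjusted p = 0.0147), as did 25.6% of the tested miRNAs, all 34 of them higher in CCL4. Under quantile normalisation and under normexp background correction the difference of miR-126-3p was 0.10 in both cases.

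**Figure D3:**
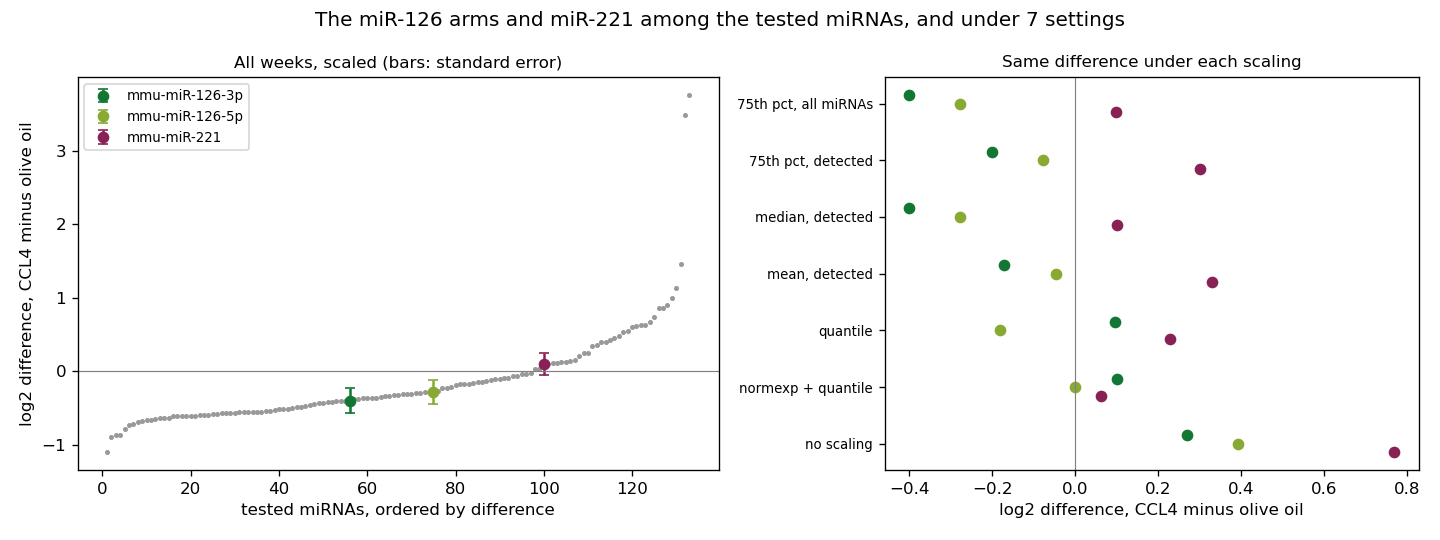
Left, log2 difference of CCL4 minus olive oil over all weeks for the 133 tested miRNAs in order of size, with the miR-126 arms and miR-221 and their standard errors. Right, the same difference under 7 ways of scaling: miR-221 was the highest of the 3 in all but the setting of normexp with quantile normalisation, and miR-126-3p ran from -0.40 to 0.27.

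By week, in a limma fit with a mean per treatment and week, the log2 difference of miR-126-3p was -0.59, -0.48 and -0.17 at 4, 6 and 8 weeks (SE 0.328, 0.284 and 0.284, adjusted p = 0.122, 0.188 and 0.789). In this fit every tested miRNA had the same SE in a week. The SE and p-values by week thus rest on a spread shared by all tested miRNAs and do not measure that of a single one. Those of miR-126-5p were -0.32, -0.46 and -0.06 (adjusted p = 0.407, 0.190 and 0.951). miR-221 gave 0.38, -0.05 and 0.04 (adjusted p = 0.331, 0.890 and 0.962). 0 of the 3 passed in any week, with or without adjustment, whereas the shares of tested miRNAs past the adjusted threshold were 45.1%, 9.02% and 6.77% (60, 12 and 9 miRNAs). Without the second CCL4 array of 6 weeks, miR-126-3p at 6 weeks was at -0.73 (adjusted p = 0.00714) and miR-126-5p at -0.68 (adjusted p = 0.0106), but this set 1 array against 1 with the spread taken from the CCL4 pair of 8 weeks alone.

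The median of the 113 miRNAs detected on all arrays moved in the same way over the weeks, at -0.56, -0.45 and -0.14. miR-126-3p was within 0.04 of that median in each week, at -0.03, -0.03 and -0.04 from it. miR-126-5p was at 0.24, -0.01 and 0.08 from it, and miR-221 at 0.94, 0.40 and 0.17. The distance of miR-221 from the median was thus greatest at 4 weeks and least at 8 weeks, a description that rests on 1 CCL4 and 1 olive oil array at 4 weeks. The interaction of treatment and week was not past the threshold for any of the 3 (limma F test, adjusted p = 0.806 for each), while 6.02% of the tested miRNAs passed it.

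Ordered by scaled log2 level, the conditions of miR-126-3p ran from olive oil at 6, 8 and 4 weeks (7.78, 7.74 and 7.70) to CCL4 at 8, 6 and 4 weeks (7.57, 7.30 and 7.11). Only the step from CCL4 at 8 weeks to CCL4 at 6 weeks, 0.27, was above the pooled SD of the CCL4 pairs, 0.26, so the other neighbours did not differ beyond it. For miR-126-5p, olive oil at 8 and 6 weeks, CCL4 at 8 weeks and olive oil at 4 weeks lay within 0.09 of each other (2.31 to 2.23), and the step down to CCL4 at 4 weeks, 0.32, was the only one above its pooled SD of 0.21. miR-221 ran from CCL4 at 4 weeks (2.69) to olive oil at 4 weeks (2.31), and the last step, 0.23, was the only one above its pooled SD of 0.13.

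The arrays lay in 2 rows of 1 slide that was scanned together. The first row held the 4-week arrays, the first CCL4 array of 6 weeks and the olive oil array of 6 weeks. Within it the scaled log2 difference was -0.66 for miR-126-3p, -0.50 for miR-126-5p and 0.13 for miR-221 (2 CCL4 against 2 olive oil arrays). In the second row it was -0.18, -0.13 and 0.04 (3 against 1). On this scale the directions were the same in both rows. Without scaling the differences were above 0 in both rows, at 0.02 and 0.29 for miR-126-3p and 0.18 and 0.34 for miR-126-5p. Those of miR-221 were 0.82 and 0.51. Since the second row held every array of 8 weeks, row and week cannot be fully told apart.

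A ratio of 2 members within an array is not changed when all signals of that array are divided by 1 number. Quantile normalisation does change it, and turned the sign of the first ratio below (0.25). Probes differ in brightness, so that only its change between treatments is compared. The log2 ratio of miR-126-3p over miR-126-5p was 5.36 ± 0.13 (SD, n = 5) in CCL4 and 5.47 ± 0.04 (SD, n = 3) in olive oil. The difference of -0.11 was within the spread (exact permutation test, two-sided, p = 0.250, adjusted over 3 pairs 0.250), so a change of the arm ratio was not detectable with these arrays. 26.8% of 112 other miRNAs detected on all arrays had a ratio over miR-126-5p whose groups did not overlap.

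The log2 ratio of miR-126-3p over miR-221 was 4.42 to 5.02 with CCL4 and 5.20 to 5.39 with olive oil. All CCL4 arrays were below all olive oil arrays, and the means were 4.79 ± 0.27 (SD, n = 5) and 5.26 ± 0.11 (SD, n = 3). The difference of -0.48, a ratio of 0.718 between the treatments, had p = 0.0357 in the exact permutation test, the smallest possible, and 0.107 after adjustment over the 3 pairs. Groups that did not overlap were found for 54.5% of 112 miRNAs set over miR-221, 57 of them with CCL4 below, so miR-126-3p shared this with many others. For miR-126-5p over miR-221 the log2 ratio was -0.57 ± 0.26 (SD, n = 5) against -0.20 ± 0.11 (SD, n = 3), a difference of -0.37 (exact permutation test, two-sided, p = 0.107, adjusted 0.161), and the groups overlapped. No ratio was formed with miR-222.

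**Figure D4:**
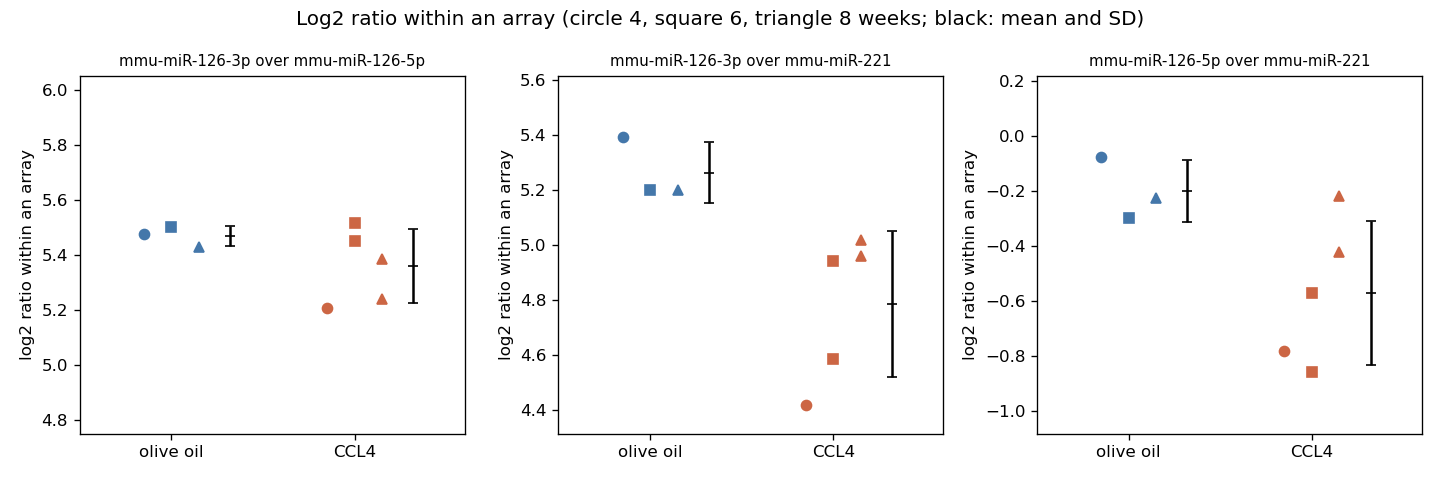
Log2 ratio of 2 members within each array, by treatment; circles are 4 weeks, squares 6 weeks and triangles 8 weeks, and black marks are the mean and SD. The ratio of miR-126-3p over miR-221 was 4.42 to 5.02 in CCL4 and 5.20 to 5.39 in olive oil, while the other ratios overlapped between treatments.

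Across the 8 arrays the scaled log2 levels of the miR-126 arms had a Pearson r of 0.909 (0.977 without scaling). miR-221 had an r of -0.142 with miR-126-3p and -0.029 with miR-126-5p, which became 0.755 and 0.830 without scaling, where all miRNAs share the brightness of the array. These values are descriptions over arrays that share a slide and a treatment. Of 130 other tested miRNAs, those most like miR-126-3p on the scaled level were mmu-miR-26a (r = 0.980), mmu-miR-30b (0.972) and mmu-miR-26b (0.969). For miR-126-5p they were mmu-miR-10a (0.981), mmu-miR-30b (0.933) and mmu-miR-19b (0.931). For miR-221 the highest values were lower, at 0.647 for mmu-miR-125b-5p, 0.644 for mmu-miR-99b and 0.595 for mmu-miR-214, and the last 2 were detected on only 5 and 6 arrays.

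The probes were fitted apart, by least squares on the mean spot signals with the same divisor and week term. In that fit the 2 probes of miR-126-3p agreed, with log2 differences of -0.46 and -0.46. Since a miRNA's signal is not the plain sum of its spot means, probe values are comparable with each other but not with the miRNA's own difference. For miR-126-5p the brighter probe (25.9 to 65.3 per spot) gave -0.36. The dimmer one (2.60 to 7.59) was in the range of the miR-222 probes on some arrays, and no difference is given for it. The probes of miR-221 gave 0.10 and 0.01. Both probes of miR-222 were dim, from -1.12 to 1.99 and from -2.04 to 5.24 per spot.

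Of 24 further miRNAs known from endothelium or vessel growth, such as the miR-17/92 cluster and the miR-23/27/24 clusters, 18 were tested and 4 were not detected on any array. In the fit over all weeks 1 was higher, 3 were lower and 14 did not pass, with a median log2 difference of -0.18, beside -0.32 over all 133 tested, of which 13.5% were higher and 35.3% lower. Without scaling 4 of the 18 were higher and 0 lower, beside 25.6% higher over all tested. mmu-miR-296-5p, known as an angiogenic miRNA, was higher by 0.39 (limma, adjusted p = 0.0480). mmu-let-7f, which is known to favour vessel sprouting, was lower at -0.56 (adjusted p = 0.0209), and mmu-miR-23b at -0.48 (adjusted p = 0.0232). The third was mmu-miR-92a, a miRNA known to restrain vessel growth, at -0.47 (adjusted p = 0.0232), which is named here after its value was seen. Without scaling these 3 were at 0.11, 0.19 and 0.20, above 0. The summed scaled level of the list was 677 to 903 with CCL4 and 981 to 1038 with olive oil, whereas the summed unscaled signals overlapped, at 4418 to 9459 and 4883 to 6360.

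Markers of other liver cells were read in the same fit, and their part in the values above was not tested. Over all 133 tested miRNAs 35.3% were lower and 13.5% higher, with a median of -0.32. Without scaling 25.6% of them were higher and 0 lower, so the unscaled counts below are to be read beside that share. Of 5 tested hepatocyte miRNAs 4 were lower and 1 was higher, with a median of -0.60. mmu-miR-122 was at -0.78, mmu-miR-192 at -0.66 and mmu-miR-802 at 0.68, and the summed scaled level was 2421 to 4283 in CCL4 and 5440 to 6076 in olive oil. Without scaling 1 of the 5 was higher, mmu-miR-802, and 0 were lower, with mmu-miR-122 at -0.11 and mmu-miR-192 at 0.01, and the summed signals overlapped (22049 to 42269 and 28592 to 35272). Of 6 tested stellate and mesenchymal miRNAs 4 were higher and 0 lower (median 0.65, with mmu-miR-199b* at 1.46 and mmu-miR-214 at 1.00), and the summed scaled level overlapped, at 1166 to 1824 against 1514 to 1692. The study chose members of this list on these arrays, so its direction is not independent evidence, and the same holds for the epithelial list and for mmu-miR-802. Of 2 tested epithelial miRNAs 1 was higher, mmu-miR-200b at 0.45, with summed levels of 4.75 to 7.34 and 4.64 to 4.91, and 3 others of the list were not detected on any array. Of 4 tested leukocyte miRNAs 1 was lower, mmu-miR-146a at -0.87, and 3 did not pass, with 1 of these above 0. The sums of the list overlapped, at 50.4 to 146 and 72.2 to 107, and 1 other member was not detected on any array. Without scaling the counts higher and lower were 5 and 0 for the stellate, 2 and 0 for the epithelial and 1 and 0 for the leukocyte list. Of the 3 erythroid miRNAs 0 passed (median -0.55), although 1 had a raw p under 0.05, and their sums of 378 to 961 and 537 to 1225 overlapped. Without scaling 0 of the 3 were higher and 0 lower.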

How the data were processed

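Per the file headers, the authors used Feature Extraction 10.5.1.1 (the paper's methods name another version) to give 1 intensity per miRNA, a background-subtracted signal that the software totals over its probes. That total is not the plain sum of the mean spot signals. The deposited intensities were unscaled. The deposited processed table held log2 of these signals, with signals under 1 set to 1 (largest difference 1.107e-06 over 4536 values). Signals were divided by the array's 75th percentile over 567 mouse miRNAs, with a floor of 0.01 after the division, and log2 was taken. The study's methods set the floor first and do not say that the percentile was taken per array. The floor before the division was run as an alternative and gave the members the same values. Probe values left out spots marked as outliers. There were no saturated spots.

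The 133 miRNAs detected on at least 3 of 8 arrays were fitted with limma 3.58.1 (R 4.3.3), over all weeks with week as a factor, and by week with a mean per treatment and week. The latter takes its spread from the 2 CCL4 pairs and assumes that the single arrays vary alike. Adjusted p-values are by Benjamini-Hochberg over all miRNAs tested, at 0.05. Single values and ratios were compared with exact permutation tests over 56 splits. The design named 6 pairs of members, of which the 3 with miR-222 could not be formed. Scripts were tested on simulated data. The number of arrays limits the precision.

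The members and the lists were chosen with earlier results of these data known. Named miRNAs are the 4 members, the 3 most like each detected member by Pearson r, mmu-miR-122 as a tissue check, and from each list at most 2 rises and 2 falls past the threshold. Alternatives were other scalings, background correction, detection filters, week and slide terms, a replicate block, the methods' Welch test and leaving out each array. The background correction, normexp with an offset of 50, was followed by quantile normalisation. Within-row differences, the slide row as a term, the mean of miRNAs detected on all arrays and the ratios after quantile normalisation were chosen after seeing the data.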

Additional observations from a re-analysis of the deposited data

How the results depend on the processing

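The direction of the miR-126 arms depended on the scaling. Over all weeks the counts of 18 miRNAs higher and 47 lower became 34 and 0 without scaling, 45 and 0 on the processed table, 5 and 0 with no filter on detection, 11 and 16 with no week term, 10 and 23 by the methods' Welch test after Benjamini-Hochberg and 0 and 1 after Bonferroni. The count lower was 10 with the 75th percentile over miRNAs detected on all arrays, 18 with quantile normalisation and 8 with normexp, and leaving out 1 array gave 8 to 14 higher and 5 to 60 lower, with 5 lower and 8 higher without the olive oil array of 6 weeks, 11 higher without that of 8 weeks, 7 lower without either array of 4 weeks and 30 lower without the first CCL4 array of 6 weeks. miR-126-3p was at 0.10 with quantile normalisation, 0.10 with normexp and 0.27 without scaling or on the processed table. It passed the threshold with the median of miRNAs detected on all arrays (-0.40, adjusted p = 0.00634, where 20 miRNAs were higher and 69 lower), with only miRNAs detected on all 8 arrays tested (-0.40, adjusted p = 0.0471, 13 higher and 51 lower), with the replicate number as a block (-0.52, adjusted p = 0.0293, 12 higher and 54 lower) and by the unadjusted Welch test (-0.37, 13 higher and 61 lower). The deviations of the CCL4 pairs of 6 and 8 weeks had an r of 0.05 over the 133 tested miRNAs. This single value cannot settle whether the replicate numbers pair the samples. miR-126-5p was at 0.39 without scaling or on the processed table, and past the threshold with the median (-0.28, adjusted p = 0.0251). miR-221 passed at 0.77 without scaling or on the processed table, and leaving out 1 array gave -0.0057 to 0.18, with -0.0057 when either array of 4 weeks was left out.

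By week, miR-126-3p at 4, 6 and 8 weeks was at 0.031, 0.085 and 0.15 with quantile normalisation and at 0.30, 0.10 and 0.42 without scaling. With the median it passed at 4 weeks (-0.47) and 6 weeks (-0.46). Leaving out 1 array gave -0.73 to -0.24 at 6 weeks, and -0.59 at 4 weeks, which passed (adjusted p = 0.0186) without either CCL4 array of 6 weeks, where only the spread was estimated anew. miR-126-5p was at 0.57, 0.11 and 0.54 without scaling, at 0.054 at 4 weeks with the mean of miRNAs detected on all arrays, and passed at 6 weeks with the median (-0.44), with -0.68 to -0.25 when 1 array was left out. miR-221 passed at 4 weeks with the median (0.51) and with the mean (0.76). At 6 weeks it was 0.41 with the 75th percentile over detected miRNAs, 0.18 with quantile normalisation, 0.53 without scaling, 0.26 with the mean, and -0.11 to 0.022 without 1 array (0.022 without the first CCL4 array of 6 weeks). At 8 weeks it was -0.041 with that percentile, -0.078 with the median, and -0.072 to 0.14 without 1 array (-0.072 without the second CCL4 array of 8 weeks).

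In the exact tests miR-126-3p was at -0.16 with the 75th percentile over detected miRNAs and -0.15 with the mean, neither past the threshold, at 0.084 with quantile normalisation, 0.29 without scaling or on the processed table, 0.089 with normexp, and at -0.44 to -0.29 without 1 array, where p was 0.0571 or 0.0952, the smallest that 7 arrays allow. miR-126-5p was at 0.40 without scaling or on the processed table and 0.0072 with normexp. The ratios of miR-126-3p over miR-126-5p and over miR-221 were 0.082 and 0.021 with normexp. That setting added an offset of 50 and was followed by quantile normalisation. With quantile normalisation alone these 2 ratios were 0.25 and -0.16. They kept their sign under the other alternatives run. The cause of the changes was not tested. miR-222 was limited by signal over background on all arrays.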
